A study of Mus musculus with 2 samples.

Results

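The receptors and coreceptors through which bone morphogenetic proteins (BMPs) and activins act were followed as 10 genes chosen by name: the type I receptors Bmpr1a, Bmpr1b, Acvr1 and Acvr1b, the type II receptors Bmpr2, Acvr2a and Acvr2b, the pseudoreceptor Bambi, the coreceptor Rgmb and the secreted modulator Twsg1. All 10 were on the array, with 13 probes of 39429 and 10 genes of 32103. All 10 passed the filter on dim probes, Bambi only through its signal in the NOGGIN cultures and Rgmb only through the controls. The tissue was ureter from wildtype NMRI mouse embryos of mixed sex at stage E12.5 (embryonic day), cultured for 18 h on membranes. The control group had medium without NOGGIN and the treated group had medium with 10 µg/ml NOGGIN, each with 2 cultures. Each of the 2 Agilent 2-colour arrays carried 1 control and 1 NOGGIN culture, with the dyes exchanged between the arrays. The labels do not give the number of ureters in a culture or say whether the cultures came from separate litters, so p-values measure the spread between these arrays, which may be technical.

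BMP and activin ligands assemble a complex of type II receptors, which phosphorylate, and type I receptors, which are phosphorylated and then act on SMAD proteins. BMP receptors act on SMAD1, SMAD5 and SMAD9, and the activin receptor ACVR1B on SMAD2 and SMAD3. NOGGIN is a secreted protein that binds BMPs and keeps them from their receptors. In the developing ureter, BMP4 made by the mesenchyme is known for its part in the differentiation of the smooth muscle coat.

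Of the 10 genes, only Bambi was called, with a higher signal in the NOGGIN-labelled channel and an adjusted p of 0.0450 (limma). Its distance of 1.5-fold from a bound on the control signal is a mean over the 2 arrays that makes no allowance for noise. On replicate 1 its measured log2 ratio of 0.41 was under 1.5-fold. Bambi entered the test only through the NOGGIN channel, where it was well above background, so the call is not independent of the filter. It was dim there too, with log2 signals of 7.22 and 7.47. The lowest NOGGIN signals of any probe well above background were 6.62 and 6.84. With both conditions required to be well above background, Bambi was not tested and 0 members were called. Bmpr1a and Bmpr1b lay on opposite sides of 0 on both arrays, and neither passed with the probe that stands for it. The other 7 genes did not pass. The 1 call of 10 genes, or 10%, stands beside 7.97% of the 21337 genes tested (1701 genes), so the share is near the background, and it rests on that 1 gene. Calls of higher signal made up 3.95% and calls of lower signal 4.03% of all genes. Under a rule without a model, 1.5-fold or more in one direction on each array, 0 of the 10 genes were counted, against 2.9% of all genes (618 genes). At an unadjusted p under 0.05 in limma, 4 of 10 genes were counted, against 23.2% of all genes. The 95% interval of the ratio, not adjusted for the number of genes, lay within 1.5-fold for 8 of 10 genes and for 89.3% of all genes. Rgmb was among the 8, but at its dim signal the interval does not bound the difference.

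Every direction given here follows the dyes in the labels, which the signs in the authors' deposited table oppose. On the log2 scale those values ran against the label-oriented log2 ratios across 18825 probes, with r = -0.985 and -0.989 on the 2 arrays. For Bambi the authors' deposited table gives signed fold changes of -1.99 and -2.91. For Id1 it gives -2.82 and -5.67, and for Id2 -4.19 and -10.5. By the labels, 7 of 8 listed target genes of BMP signalling were called higher under this BMP antagonist, Id1 and Id2 among them. By the same labels, 4 of 4 smooth muscle genes were called lower. Both would turn with the deposited signs. Which direction is right is not settled, and turning the sign exchanges higher and lower at the same size for every gene named. Rose, fell, higher and lower below hold only for the label direction.

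**Figure D1:**
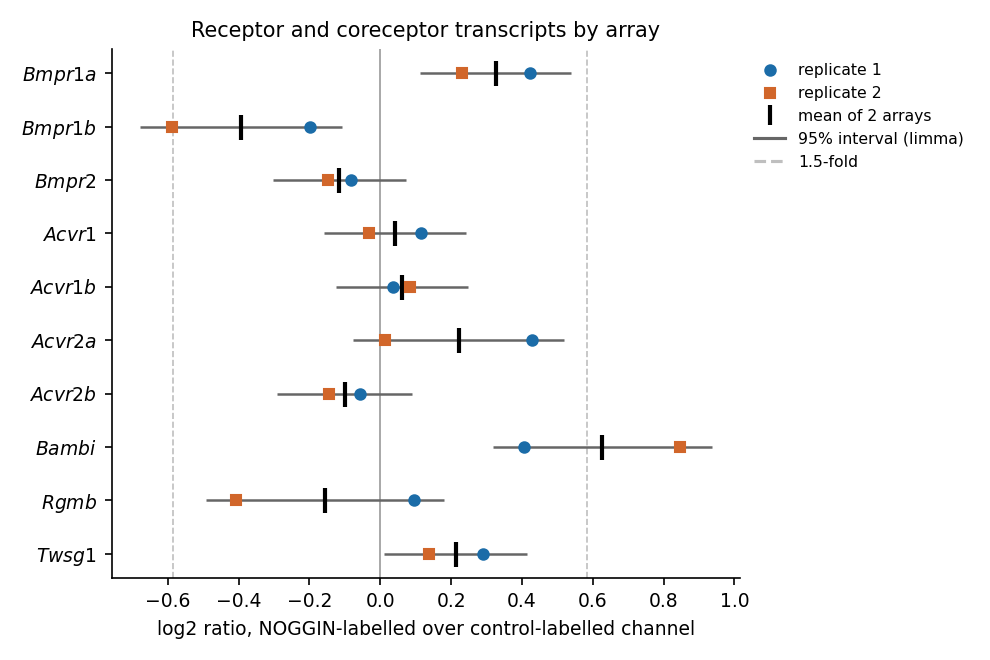
Log2 ratio of NOGGIN-labelled over control-labelled signal (horizontal axis) for each gene, with a circle for replicate 1, a square for replicate 2, a tick for their mean, a line for the 95% interval from limma and dashed lines at 1.5-fold. Bambi lies at 0.41 and 0.85, measured against a control signal not well above background, so that its interval does not bound the difference, and Bmpr1a and Bmpr1b lie on opposite sides of 0 on both arrays.

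The promoters of the type I pair Bmpr1a and Bmpr1b are shown because these closely related receptors had ratios of opposite sign. The RefSeq table of mouse promoters (GRCm38.p6) held windows for 9 of the 10 genes, 13 in all, and the 250 bases before each start were searched on both strands. Capitals mark GGCGCC, a GC-rich SMAD-binding sequence that is its own reverse complement, and CAGAC or its reverse complement GTCTG, the core SMAD-binding sequence; the motifs share no overlap in these windows. The Bmpr1a window is on the minus strand at chr14:34502547-34502796. Of 3 Bmpr1b windows, the one farthest upstream is shown, on the minus strand at chr3:141982265-141982514.
Bmpr1a: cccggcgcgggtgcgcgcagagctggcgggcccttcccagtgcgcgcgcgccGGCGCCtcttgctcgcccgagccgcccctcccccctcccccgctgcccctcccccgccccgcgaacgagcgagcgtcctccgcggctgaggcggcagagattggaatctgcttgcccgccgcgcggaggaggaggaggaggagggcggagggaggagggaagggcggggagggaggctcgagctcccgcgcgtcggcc
Bmpr1b: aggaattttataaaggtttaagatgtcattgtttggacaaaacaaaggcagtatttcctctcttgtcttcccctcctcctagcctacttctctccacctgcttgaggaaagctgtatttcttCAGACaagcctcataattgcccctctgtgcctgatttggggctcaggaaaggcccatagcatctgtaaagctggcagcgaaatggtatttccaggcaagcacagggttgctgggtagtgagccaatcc
The Bmpr1a window holds 1 GGCGCC and 0 CAGAC and is 78.8% G or C. The Bmpr1b window shown holds 0 GGCGCC and 1 CAGAC and is 46.8% G or C, the lowest of its 3 windows. The others are 56.4% G or C with 0 CAGAC, and 52.8% with 1 CAGAC, and each holds 0 GGCGCC. Which start is used in this tissue was not measured. GGCGCC lay in 3 of the 13 windows (Bmpr1a, Bmpr2 and Rgmb), against 9.59% of 32851 windows of all genes. CAGAC lay in 6 of the 13, against 42.2% of all windows. A match is a description of the letters and not a binding site.

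Among the type I receptors, Bmpr1a encodes a BMP receptor that is widely expressed in embryos. Its normalised log2 signals on replicate 1 were 13.69 in the control and 14.11 with NOGGIN, and on replicate 2 they were 13.67 and 13.90. Both NOGGIN signals lay above both control signals. Such a separation of 2 signals from 2, here and for the genes below, describes the values only. How often it occurs over all genes was not counted. The log2 ratios were 0.42 and 0.23, with a mean of 0.33 ± 0.14 (SD, n = 2), a 95% interval of 0.11 to 0.54 and an adjusted p of 0.0920 (limma, Benjamini-Hochberg), so it did not pass.

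Bmpr1b encodes the related BMP receptor best known from cartilage and ovary. Its log2 signals on replicate 1 were 10.54 in the control and 10.34 with NOGGIN, and on replicate 2 they were 10.78 and 10.20. Both NOGGIN signals lay below both control signals, with log2 ratios of -0.20 and -0.59. The mean was -0.39 ± 0.27 (SD, n = 2), the 95% interval -0.68 to -0.11 and the adjusted p 0.114, so it did not pass. A second, dimmer Bmpr1b probe had log2 signals of 8.74 and 8.27 on replicate 1, and 8.78 and 8.30 on replicate 2. Its ratios of -0.46 and -0.48 differed far less between the arrays, with a mean of -0.47 ± 0.0095 (SD, n = 2) and an adjusted p of 0.0226 over all kept probes. With the mean of both probes in place of the brighter one, the gene passed at -0.43 and an adjusted p of 0.0416, so its call depends on which probe stands for it. The ratio of Bmpr1a exceeded that of Bmpr1b by 0.62 on replicate 1 and 0.82 on replicate 2, a difference of ratios that is described here and was not tested.

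Acvr1 encodes a type I receptor that answers to BMPs. Its log2 signals on replicate 1 were 14.02 in the control and 14.14 with NOGGIN, and on replicate 2 they were 14.15 and 14.12, so the groups overlapped. The mean ratio was 0.042 ± 0.11 (SD, n = 2), with a 95% interval of -0.16 to 0.24 and an adjusted p of 0.815. A second probe gave -0.0029, and median centring in place of loess gave -0.033, so the sign of this small ratio is not fixed. Acvr1b, the activin type I receptor, had log2 signals of 9.96 and 9.99 on replicate 1, and 10.10 and 10.18 on replicate 2. The 2 arrays differed from each other by more than the conditions did, and the mean ratio was 0.061 ± 0.034 (SD, n = 2; 95% interval -0.12 to 0.25, adjusted p 0.690).

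**Figure D2:**
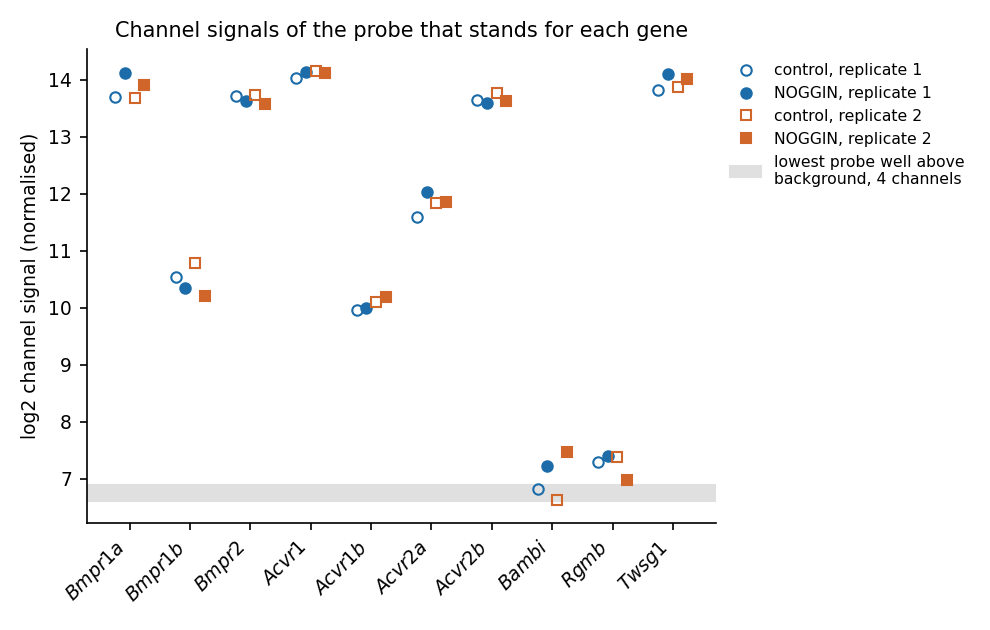
Normalised log2 signal (vertical axis) of the probe that stands for each gene, open for control and filled for NOGGIN, as circles for replicate 1 and squares for replicate 2; the grey band spans the lowest signals of probes well above background in the 4 channels. Signals are compared within a gene only, and the control signals of Bambi, 6.81 and 6.62, lie in the band.

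The type II receptors bind ligand and phosphorylate the type I partner, and none of the 3 passed. Bmpr2, which is selective for BMPs, had log2 signals on replicate 1 of 13.71 in the control and 13.63 with NOGGIN, and of 13.72 and 13.58 on replicate 2. The NOGGIN signals lay below both controls, by a mean ratio of -0.12 ± 0.045 (SD, n = 2; 95% interval -0.30 to 0.071, adjusted p 0.424). Acvr2a, shared by activins and BMPs, had signals of 11.59 and 12.02 on replicate 1, and 11.84 and 11.85 on replicate 2. For Acvr2a both NOGGIN signals lay above both controls, narrowly at 11.85 against 11.84. Its ratios of 0.43 and 0.013 disagreed in size, with a mean of 0.22 ± 0.29 (SD, n = 2; 95% interval -0.076 to 0.52, adjusted p 0.336). A second Acvr2a probe showed the same unevenness, at 0.21 and 0.017. Acvr2b, the other shared type II receptor, had signals of 13.64 and 13.59 on replicate 1, and 13.77 and 13.62 on replicate 2. Both of its NOGGIN signals lay below both controls. The mean ratio was -0.10 ± 0.062 (SD, n = 2; 95% interval -0.29 to 0.090, adjusted p 0.496). The 95% intervals of all 3 type II genes lay within 1.5-fold in either direction.

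Bambi encodes a transmembrane protein that resembles a type I receptor but lacks the kinase domain, and it is a known target of BMP signalling. Its log2 signals on replicate 1 were 6.81 in the control and 7.22 with NOGGIN, and on replicate 2 they were 6.62 and 7.47, so both NOGGIN signals lay above both controls. The measured ratios were 0.41 and 0.85, with an adjusted p of 0.0450 in the fit over all genes. The control signal was well above background in 1 of 4 spots on replicate 1 and 0 of 3 on replicate 2, while the NOGGIN signal was in 4 of 4 and 3 of 3. The control value is therefore only a bound, and the gene was admitted to the test by its brighter side. Neither the measured mean nor an interval gives the size of the difference. The NOGGIN signal was at least 1.5-fold higher, where the dim side is set, on each array, at the higher of its own signal and the lowest signal of any probe well above background.

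The Bambi call depends on how the array's filler spots are treated. These spots hold a dim probe that names no gene, and they had weight 0 in the loess here. That weight was settled on after Bambi had been seen with the filler spots kept, where its adjusted p was 0.0531 and 0 of the 10 genes passed. With filler and control spots both kept it was 0.0520, and with median centring in place of loess 0.174. The measured mean ratio was 0.63 to 0.65 in these settings. Over 15 settings that gave a value, the measured mean ratio ranged from 0.63 to 1.69 and the adjusted p from 0.0123 to 0.174, and Bambi passed in 12.

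**Figure D3:**
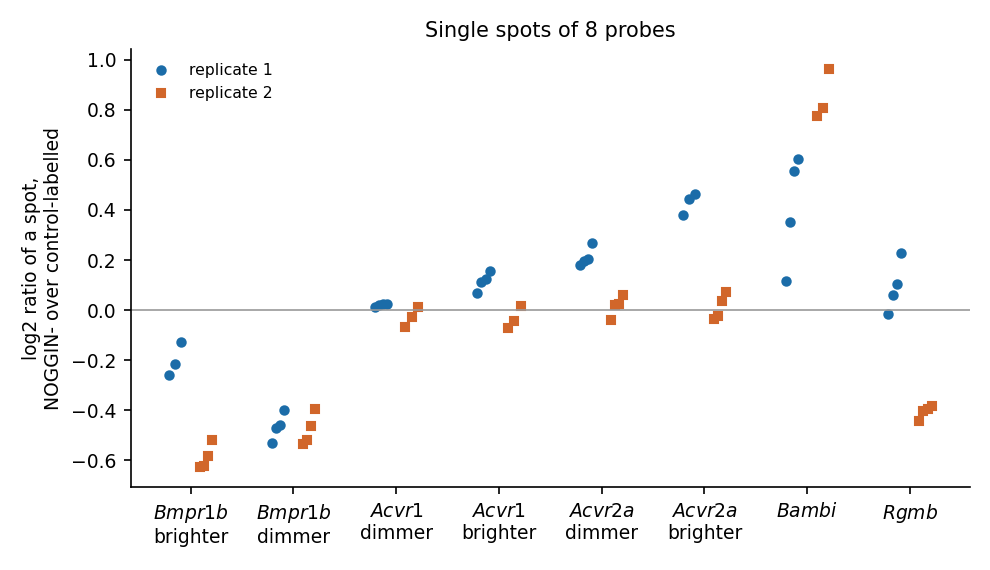
Log2 ratio of single spots (vertical axis) for 8 probes of 5 genes, circles for replicate 1 and squares for replicate 2, with brighter and dimmer marking the 2 probes of a gene. All Bambi spots lie above 0 and all spots of both Bmpr1b probes below it. The Rgmb spots of replicate 2 lie near its ratio of -0.41, while those of replicate 1 spread across 0, from -0.014 to 0.23.

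Rgmb encodes a membrane-anchored coreceptor that binds BMPs. Its log2 signals on replicate 1 were 7.30 in the control and 7.39 with NOGGIN, and on replicate 2 they were 7.38 and 6.97, so the groups overlapped. The ratios of 0.095 and -0.41 had opposite signs. Only 2 of 4 spots of the NOGGIN signal on replicate 2 were well above background. The size of the ratio depended on the background correction. With an offset of 0 the mean was -0.23 ± 0.57, and with the Agilent processed signals -0.36 ± 0.97 (SD, n = 2). The interval of the main fit therefore does not bound the Rgmb difference. In that fit the values were as follows. The mean was -0.16 ± 0.35 (SD, n = 2; 95% interval -0.49 to 0.18, adjusted p 0.554). Twsg1 encodes a secreted protein that binds BMPs together with chordin. Its signals were 13.81 and 14.10 on replicate 1, and 13.88 and 14.01 on replicate 2. Both NOGGIN signals lay above both controls, and the mean ratio of 0.21 ± 0.11 (SD, n = 2; 95% interval 0.011 to 0.42) did not pass, at an adjusted p of 0.197.

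Taking the 10 genes as a group, 8 had the same sign on both arrays, against 66.7% of all genes. Their median log2 ratio was 0.051, and the median size of the ratio was 0.18, against 0.10 over all genes. In bulk tissue, fewer cells of a type and less RNA per cell cannot be told apart. Ureteric and other cell type markers moved alongside: 4 of 4 smooth muscle genes fell, with a median log2 ratio of -1.01, and 3 of 5 mesenchymal genes rose, with a median of 0.59. Summed over its list on the linear scale, the smooth muscle signal was 449439 and 444689 in the controls and 200510 and 214334 with NOGGIN. The mesenchymal sum was 103806 and 101739 in the controls and 163283 and 147261 with NOGGIN. Of the other lists, 1 of 8 epithelial genes rose, 1 of 4 nephron progenitor genes fell, and 0 of 5 endothelial, 0 of 5 macrophage and 0 of 5 neural genes passed. The part of cell composition in the receptor values was not tested.

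Other genes of the pathway were counted by list, beside the 7.97% of all genes called; the lists were chosen with earlier results known. Of 9 measured other receptors and coreceptors, 1 passed, Tgfbr3, the betaglycan coreceptor that presents TGF-beta and inhibin, at -0.48 ± 0.087 (SD, n = 2; adjusted p 0.0283). Near relatives of the members did not pass: Acvrl1 was at 0.17, Tgfbr1 at 0.12, Tgfbr2 at -0.20, Eng at 0.063, Amhr2 at 0.092, Rgma at 0.11 and its receptor Neo1 at -0.036. Acvr1c was not measured above the filter. Among 11 intracellular proteins that bind these receptors 0 passed, and Fkbp1a, which holds type I receptors inactive, was at -0.017, a sign that turned with its other probes.

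Of 8 SMADs, 3 rose and 0 fell. They were Smad9, a BMP receptor substrate, at 2.37, and the inhibitory SMADs Smad6, at 1.01, and Smad7, at 0.55. Of 19 ligands, 3 rose and 7 fell, with Gdf6 at -3.07, Bmp2 at -2.26 and Bmp3 at -1.38 among the falls. Of 19 secreted modulators, 5 rose and 3 fell, with Chrdl1 at 1.87 and Chrdl2 at 1.39, which bind BMPs, among the rises. Of 8 target genes, 7 rose and 0 fell, with Id3 at 1.45, Atoh8 at 1.37 and Msx2 at 1.17 having the smallest adjusted p. The largest rises in that list, named after their values were seen, were Id2 at 2.73, Id1 at 1.98 and Id4 at 1.94. These counts are for genes past an adjusted p of 0.05 over all genes, and no test compared one list with another. Under median centring in place of loess, 0 of these genes passed, at 34 with an unadjusted p under 0.05 in limma. Some mean ratios moved little there, with Smad9 at 2.35, Gdf6 at -3.09, Bmp2 at -2.30 and Tgfbr3 at -0.52. The spread between the arrays grew for Id3, at 1.32 ± 0.73 (SD, n = 2) there against 1.45 ± 0.21 under loess. Tgfbr3 was also lost with the Agilent processed signals (adjusted p 0.0505) and with the values of the authors' deposited table (0.0737).

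**Figure D4:**
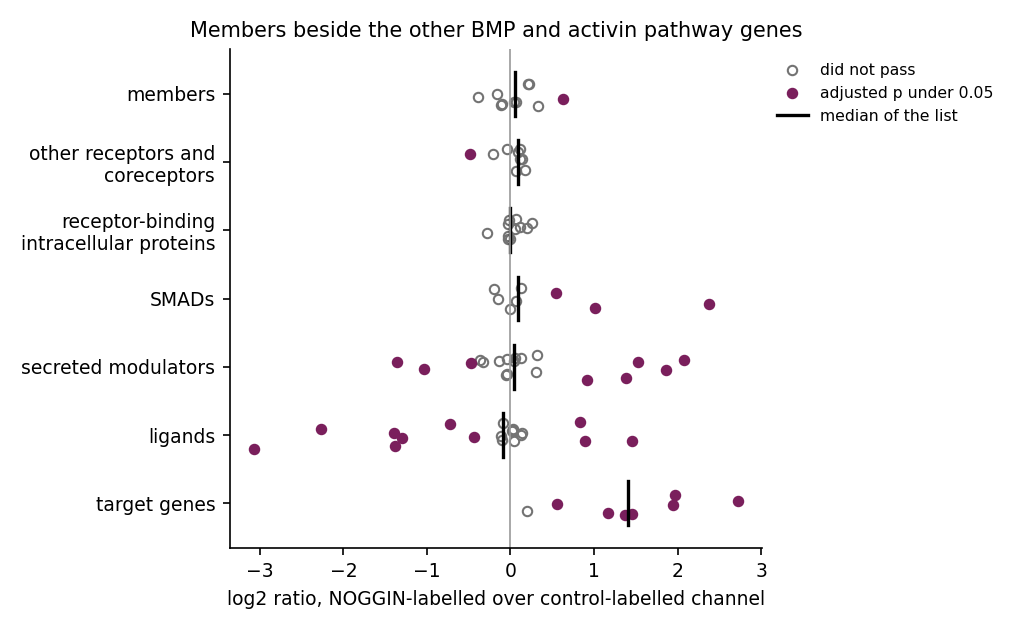
Mean log2 ratio of each measured gene (horizontal axis) by pathway list, filled where the adjusted p was under 0.05, with a line at the list median. The 10 members lie between -0.39 and 0.63, the upper end being Bambi. The 11 intracellular receptor-binding proteins lie between -0.29 and 0.26, and 7 of 8 target genes lie to the right among the filled points.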

How the data were processed

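Each array compared 1 control and 1 NOGGIN culture. The deposited scanner files hold spot intensities per channel and, per the file headers, a log10 ratio of red over green. The submitters' processing notes name Agilent Feature Extraction, version 10.7.3.1, as the software. The authors' deposited table holds a score, a signed fold change per probe and array. Its normalisation is not stated in any source used here. Directions come from the dyes in the labels.

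Backgrounds were corrected with normexp (offset 50) and each array was normalised with loess, with weight 0 for control, outlier and filler spots; the filler weight was chosen after the values under both choices had been seen. Spots (4 a probe) were averaged. Kept probes had, in at least 1 condition and on each array, a share above 0.5 of spots well above background, and the brightest kept probe stood for its gene. Probes were named by accession through RefSeq (GRCm38.p6), which named 28328 of 39429. Channel signals were scaled between arrays (Aquantile). Log2 ratios were tested against 0 with limma 3.58.1 in R 4.3.3 (lmFit, eBayes, Benjamini-Hochberg over 21337 genes, two-sided, threshold 0.05). The 2 arrays leave 1 residual degree of freedom, to which moderation adds 4.12, and their number limits the precision. Saturated spots numbered 0. Only the model fit was tested on simulated data, with log ratios drawn from its own fitted spread. It recovered 52% of 100 genes changed 1.5-fold and 98% of 100 changed 2-fold, and called 17 unchanged genes. Those 17 were a larger share of its calls than the threshold of 0.05. Background correction, loess, the filter and the choice of probe were not part of that simulation.

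Named genes are all 10 members, their near relatives, and in each pathway list up to 3 calls with the smallest adjusted p. A gene that this rule names is not reported here. Members and lists were chosen with earlier results of these data known.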

Additional observations from a re-analysis of the deposited data

How the results depend on the processing

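Alternatives changed the background correction, the normalisation, the dim-probe filter, the probe or spot summary, the source of the ratios and the form of the test. Chosen after the data were seen were the loess with filler spots kept, with filler and control spots kept, and normexp by maximum likelihood, and the dimmest kept probe of a gene. The 1 call among the 10 genes became 0 under median centring, under the filter that asks for both conditions above background, with filler spots kept, with filler and control spots kept and under the 1.5-fold rule, and 2 with the mean of probes or the dimmest probe. Bambi was 0.65 (adjusted p 0.174) under median centring, 0.63 (0.0531) with filler spots kept and 0.63 (0.0520) with filler and control spots kept, and under the stricter filter it had no value. With normexp by maximum likelihood it passed. Bmpr1b passed at -0.43 (adjusted p 0.0416) with the mean of probes and at -0.47 (0.0256) with the dimmest. Acvr1 changed sign to -0.033 under median centring and -0.0029 with its dimmest probe, and Fkbp1a to 0.0082 with the mean of probes and 0.12 with the dimmest.

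Median centring called 0 of all genes (3572 at an unadjusted p under 0.05 in limma) and 0 in the pathway lists (34), against 1701 and 29. The 1.5-fold rule counted 618 of all genes. Filler spots kept gave 1481 calls and maximum likelihood 1797. The pairing lies within each array, since both conditions share it; the separate-channel model with no replicate block called 1695 genes and the same number of the 10. The members' other values from both arrays kept their direction and side of the threshold. Each array alone gave a value with no test: Bambi ranged from 0.41 to 0.85 and Bmpr1b from -0.59 to -0.20. Acvr1, from -0.033 to 0.12, and Rgmb, from -0.41 to 0.095, changed direction between the arrays. Depth here is the signal over background, which limits Bambi and Rgmb.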
